A study of Rattus norvegicus with 6 samples.

Results

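The genes described here are 6 that mark projection neurons of the striatum: Drd1, Drd2, Penk, Tac1, Adora2a and Pdyn. They were listed by Ensembl gene ID and read out of a table of 32754 gene IDs, where all 6 were found and all 6 passed the filter on low counts, among 14818 genes that did. The measurements are RNA-seq read counts from brain tissue of 6 rat embryos at embryonic day 18. The 3 controls were of the Sprague-Dawley strain (SD), and the other 3 were of the tish line, in which neurons misplaced beneath the cortex form a band in both hemispheres and whose series title names a deletion in Eml1. No treatment of the animals is named, and each group held 2 males and 1 female. The protocol gives the dissected tissue as neocortex in SD and as cortex with its normally placed and misplaced parts in tish, so the tissue taken differed with the strain and the effects of these cannot be told apart. Litter and dam are not among the labels used here, so the p-values measure the spread between these embryos.

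The striatum lies beneath the cortex in the developing forebrain, and most of its neurons are GABAergic projection neurons of 2 pathways. Direct-pathway neurons carry the dopamine D1 receptor and make substance P and dynorphin. Indirect-pathway neurons carry the dopamine D2 receptor and the adenosine receptor of Adora2a and make enkephalin. These genes are used to judge whether a cortical sample holds striatal tissue, but none is exclusive to the striatum, and cortical neurons of some types express several of them. In bulk tissue a larger number of expressing cells and more RNA per cell cannot be told apart.

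Library totals ran from 15625915 to 20844504 counts. Levels are given in CPM, counts relative to the library total after scaling of the libraries by TMM, an edgeR method whose factors lay between 0.97 and 1.04. At this depth the floor of 3 counts, which is what 0 counts could still hide, corresponds to 0.146 to 0.192 CPM, and every member was above that in every library. No gene lengths accompany the counts, so levels are compared between libraries and never between genes. Markers that define the cortex or other cell types were not analysed here, because the count table pairs no ID with a symbol.

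All 6 striatal genes were higher in tish than in SD, and in all 6 each tish library lay above each SD library. Calls came from edgeR's quasi-likelihood test with Benjamini-Hochberg adjustment over all tested genes, at a threshold of 0.05. By that rule 6 of 6 members were called higher and 0 lower, against 13.4% of tested genes called higher, 12.9% called lower and 26.3% called in all. Tish libraries lay above SD libraries without overlap in 21.7% of tested genes and below them in 22.6%. The median log2 fold change was 1.19 over the 6 members and -0.02 over all tested genes. The 3 direct-pathway genes had a median of 0.56 and the 3 indirect-pathway genes a median of 1.39. The 3 peptide genes (Penk, Tac1 and Pdyn) and the 3 receptor genes gave the same medians, 0.56 and 1.39. These medians therefore do not tell a difference by pathway from one by kind of gene. Drd1, of the direct pathway, was at 1.80, above Drd2 (1.39) and Adora2a (0.99) of the indirect pathway. Summed over the 6 genes, the level was 83.5, 84.7 and 87.7 CPM in the SD libraries and 197, 212 and 237 CPM in the tish libraries, here and below in the order of the replicate numbers. The means were 85.3 ± 2.19 CPM in SD and 215 ± 20.3 CPM in tish (SD, n = 3 each), a ratio of 2.52.

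**Figure D1:**
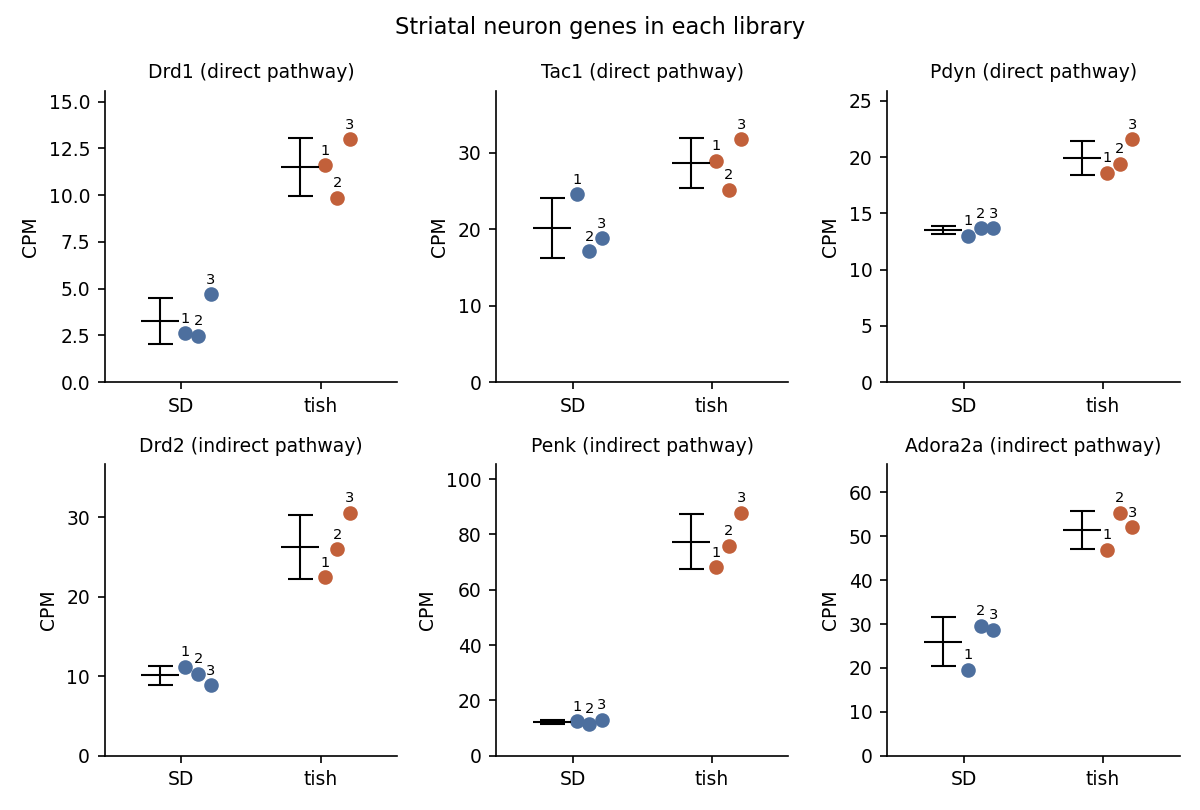
Level of each striatal gene in CPM (vertical axes start at 0) in 3 SD and 3 tish libraries, numbered by replicate; black bars are the mean and standard deviation of a group. In all 6 genes the tish points lie above the SD points, by a wide gap in Penk (lowest tish library 5.24 times the highest SD library) and a narrow one in Tac1 (1.03 times).

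Among direct-pathway genes, Drd1 differed most. Drd1 (ENSRNOG00000023688) encodes the dopamine D1 receptor, which raises cyclic AMP through a stimulatory G protein. It had 46, 46 and 88 counts in the SD libraries and 181, 203 and 255 counts in the tish libraries. These correspond to 2.62, 2.48 and 4.72 CPM in SD and 11.6, 9.86 and 13.0 CPM in tish. SD 3 stood above the other SD libraries, and the lowest tish library was still 2.09 times SD 3. Mean levels were 3.27 ± 1.25 CPM in SD and 11.5 ± 1.56 CPM in tish (SD, n = 3 each). The log2 fold change was 1.80 (SE 0.26, 95% interval 1.22 to 2.38, edgeR adjusted p = 0.00144), a fold of 3.49. Drd1 had the fewest counts of the 6 genes in each library and the widest interval.

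Tac1 (ENSRNOG00000007374), which encodes the precursor of the peptides substance P and neurokinin A, showed the smallest fold. It had 432, 317 and 350 counts in the SD libraries and 455, 520 and 626 counts in the tish libraries. Its levels were 24.6, 17.1 and 18.8 CPM in SD and 29.0, 25.2 and 31.8 CPM in tish. SD 1 was the highest control and came within 1.03 times of tish 2, the lowest tish library. The log2 fold change was 0.51 (SE 0.15, 95% interval 0.16 to 0.86, edgeR adjusted p = 0.0374), a fold of 1.42. The call and the separation were fragile. Without scaling factors SD 1 stood at 25.5 CPM and tish 2 at 25 CPM, so the groups overlapped, and the edgeR adjusted p was 0.0703. The adjusted p was also 0.112 without SD 2, 0.122 without SD 3, 0.105 without tish 1, 0.136 without tish 3 and 0.0895 with males alone, while the direction stayed positive in each.

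Pdyn (ENSRNOG00000026036) encodes prodynorphin, the precursor of opioid peptides that act mainly on the kappa receptor. It was the steadiest control measurement, at 13.0, 13.7 and 13.7 CPM in SD, and stood at 18.6, 19.4 and 21.6 CPM in tish. The counts behind these were 229, 254 and 255 in SD and 292, 399 and 424 in tish. The groups did not overlap, and the standard deviation was 0.373 CPM in SD against 1.52 CPM in tish. Counting error was not separated from these spreads, and whether they differ was not tested. The log2 fold change was 0.56 (SE 0.12, 95% interval 0.29 to 0.83, edgeR adjusted p = 0.00846), a fold of 1.47. In SD 1 and tish 3, 35 and 65 tested genes lay at least 4-fold above or below every other library, against 7 to 23 in each of the rest. With both left out the edgeR adjusted p of Pdyn was 0.0536.

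Indirect-pathway genes held the largest difference of the set. Penk (ENSRNOG00000008943) encodes proenkephalin, the precursor of the enkephalins, opioid peptides that act mainly on the delta and mu receptors. It had 218, 215 and 243 counts in the SD libraries and 1068, 1566 and 1729 counts in the tish libraries. Its levels were 12.4, 11.6 and 13.0 CPM in SD and 68.2, 76.0 and 87.9 CPM in tish. SD libraries lay close together, and all 3 tish libraries were far above them. Mean levels were 12.3 ± 0.714 CPM in SD and 77.4 ± 9.95 CPM in tish (SD, n = 3 each). The log2 fold change was 2.65 (SE 0.12, 95% interval 2.38 to 2.92, edgeR adjusted p = 1.04e-05), a fold of 6.27. Penk ranked 29 by log2 fold change among the 14818 tested genes.

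Drd2 (ENSRNOG00000008428) encodes the dopamine D2 receptor, which lowers cyclic AMP through an inhibitory G protein. It had 196, 190 and 165 counts in the SD libraries and 352, 535 and 601 counts in the tish libraries, or 11.2, 10.3 and 8.84 CPM in SD and 22.5, 26.0 and 30.6 CPM in tish. No library stood alone in either group, and the lowest tish library was 2.01 times the highest SD library. The log2 fold change was 1.39 (SE 0.15, 95% interval 1.04 to 1.73, edgeR adjusted p = 0.000434), a fold of 2.61.

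Adora2a (ENSRNOG00000001302) encodes an adenosine receptor that couples to a stimulatory G protein and opposes D2 signalling in indirect-pathway neurons. It had 345, 548 and 536 counts in SD and 734, 1142 and 1024 counts in tish. Its levels were 19.6, 29.6 and 28.7 CPM in SD and 46.9, 55.4 and 52.1 CPM in tish. SD 1 was low among the controls, and the lowest tish library was 1.58 times the highest SD library. The log2 fold change was 0.99 (SE 0.16, 95% interval 0.64 to 1.34, edgeR adjusted p = 0.00234), a fold of 1.98. Without SD 1 it was 0.82.

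**Figure D2:**
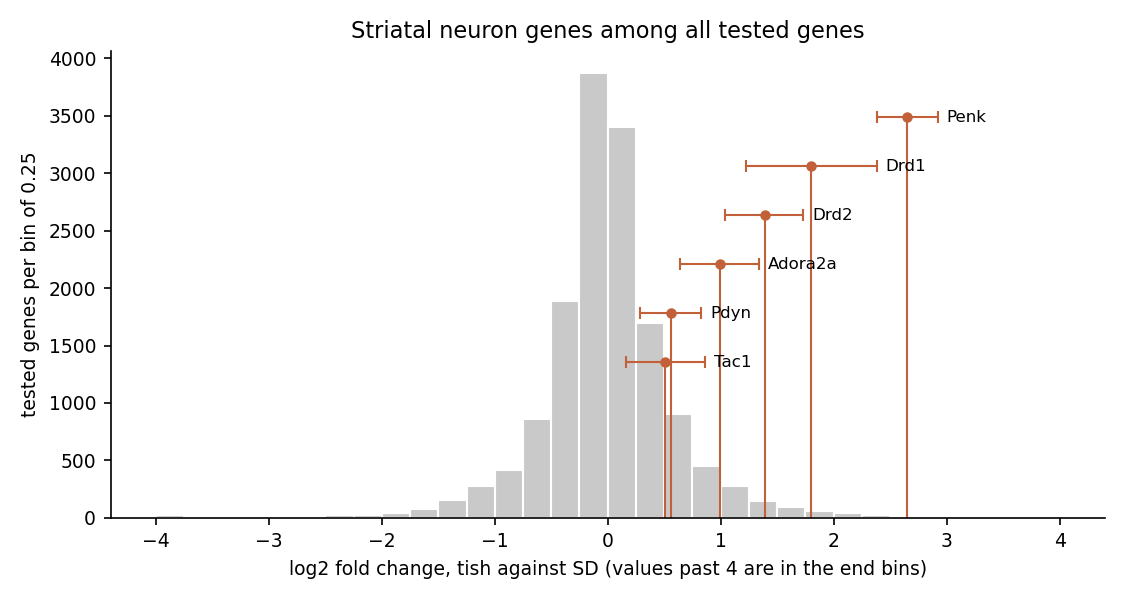
Histogram of the log2 fold change of tish against SD over 14818 tested genes (grey, bins of 0.25), with the 6 striatal genes marked in orange at arbitrary heights and bars for their 95% intervals. Penk, Drd1, Drd2 and Adora2a lie above the 95th percentile of tested genes (0.96), and Tac1 and Pdyn lie between the 75th percentile (0.25) and the 95th.

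The members' places among all tested genes differed. A higher log2 fold change than that of Penk was found in 0.189% of tested genes, than Drd1 in 0.985%, than Drd2 in 2.12% and than Adora2a in 4.7%. For Pdyn and Tac1 these shares were 11.9% and 13.3%, so that their folds were within the upper part of the general spread.

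The 6 folds were unequal. The 95% interval of the log2 fold change of Penk, from 2.38, lay above the whole intervals of Drd2, Adora2a, Pdyn and Tac1. Shares of each gene in their summed counts, which do not depend on how libraries are scaled, were compared between the groups. Penk made up 14.9%, 13.7% and 14.8% of the sum in the SD libraries and 34.7%, 35.9% and 37.1% in the tish libraries. Each tish library was thus well above each SD library. Pdyn had 15.8% ± 0.335 in SD and 9.24% ± 0.205 in tish (SD, n = 3 each), with no overlap. Tac1 had 23.7% ± 5.05 in SD and 13.4% ± 1.43 in tish (SD, n = 3 each), also with no overlap. Shares of Drd1, Drd2 and Adora2a overlapped between the groups. An exact two-sided permutation test gave p = 0.1 for each of Penk, Pdyn and Tac1, the smallest that 3 against 3 libraries allow, and 0.2 after Benjamini-Hochberg adjustment over the 6 shares. Shares of 1 sum depend on each other, so that a rise of Penk lowers the others.

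**Figure D3:**
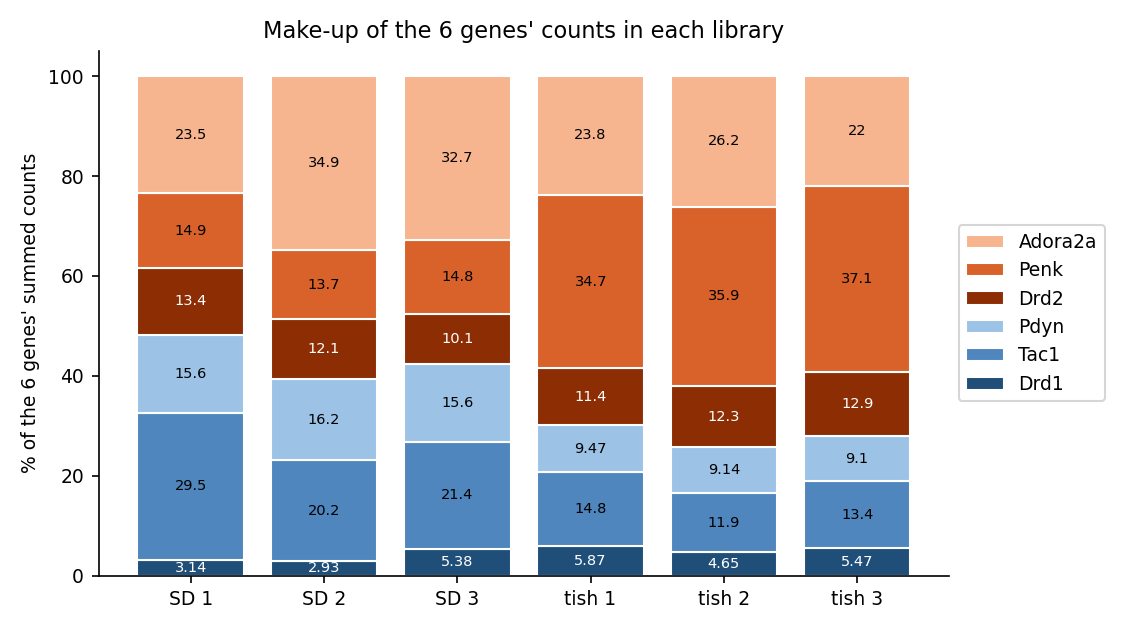
Percent of the summed counts of the 6 genes that each gene took in each library (blue, direct-pathway genes; orange and brown, indirect-pathway genes). Penk takes 13.7% to 14.9% in SD and 34.7% to 37.1% in tish, while Pdyn goes from 15.6% to 16.2% in SD to between 9.1% and 9.47% in tish.

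The ratio of a pair of members within a library involves no other member, but each member enters 5 of the 15 pairs, so the pairs are not independent. Ratios did not overlap between SD and tish in 11 of the 15 pairs, against 45.2% of all pairs among 14781 tested genes with a count in every library. All 5 pairs with Penk were among the 11, and of the 10 pairs without Penk 6 did not overlap. The ratio of Penk to Drd2, both of the indirect pathway, can be read from Drd2 to Penk, which was 0.899, 0.884 and 0.679 in the SD libraries and 0.33, 0.342 and 0.348 in the tish libraries. Among direct-pathway genes, Drd1 to Pdyn was 0.201, 0.181 and 0.345 in SD and 0.62, 0.509 and 0.601 in tish. Tac1 to Pdyn overlapped, at 1.89, 1.25 and 1.37 in SD and 1.56, 1.3 and 1.48 in tish. Drd1 to Drd2, the receptors of the opposite pathways, also overlapped, at 0.235, 0.242 and 0.533 in SD and 0.514, 0.379 and 0.424 in tish. Ratios without overlap occurred within each pathway as well as between the pathways. The exact permutation test gave p = 0.1 for each of the 11 pairs, and 0.136 after Benjamini-Hochberg adjustment over 15 pairs.

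Single libraries were examined because the genes serve as a check on dissection. None of the 6 genes lay at least 4-fold above or below every other library in any library. Of 14818 tested genes only 7 to 65 did so in a given library, so a count of 0 among 6 genes says little. The rule compares a library with those of both groups. A high control would therefore have to exceed every tish library as well, and the rule could hardly flag it. Within SD, 2 members were highest in SD 1 (Drd2 and Tac1), 2 in SD 2 (Adora2a and Pdyn) and 2 in SD 3 (Drd1 and Penk), so no control library was high across the set. Within tish, 5 of 6 members were highest in tish 3, and Adora2a was highest in tish 2. Tish 1 was lowest in 4 members and tish 2 in Drd1 and Tac1. Tish 3 was highest in its group in 35% of all tested genes.

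The widest gap between a library and the next of its group was that of Drd1 in SD 3, at 1.80 times SD 1. That ratio of 88 to 46 counts had an exact 95% interval of 1.25 to 2.63, which covers counting error only and was computed for the pair with the widest gap. A larger gap at the top of the SD group was found in 3.08% of tested genes, against a median of 1.10. Adora2a in SD 1 lay 1.46 times below the next library, a gap exceeded at the bottom of the SD group by 9.87% of tested genes. Tac1 in SD 1 lay 1.31 times above the next, a gap exceeded by 14.1%. SD 1 was thus low in Adora2a and high in Tac1, and the library high in Drd1 was SD 3. In tish, the gap of the highest library to the next was between 1.06 and 1.18 times in all 6 genes, against a median of 1.08 over tested genes. The widest was that of Drd2 in tish 3, exceeded by 21.9% of tested genes.

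The direction of all 6 genes was the same with each library left out in turn. Drd1 ranged from 1.64 without SD 2 to 2.16 without SD 3, where the high control library is absent. Penk ranged from 2.55 to 2.73, Drd2 from 1.27 to 1.49 and Adora2a from 0.82 to 1.09. These 4 genes were called with any 1 library left out, with males alone and with SD 1 and tish 3 both left out. Pdyn, at 0.50 to 0.61, was called with any 1 library left out, with an adjusted p of up to 0.0433.

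**Figure D4:**
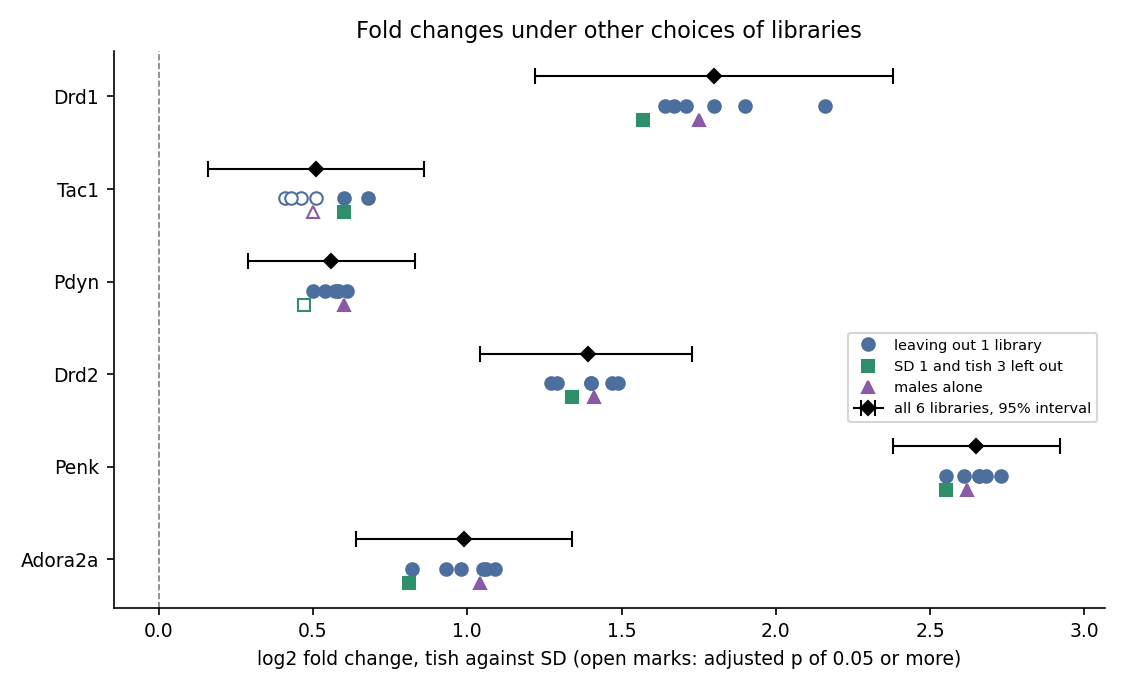
Log2 fold change of each gene with all 6 libraries (black diamond, 95% interval), with 1 library left out (circles), with SD 1 and tish 3 left out (squares) and with males alone (triangles); open marks have an edgeR adjusted p of 0.05 or more. Every mark lies above 0, and the open marks belong to Tac1 (4 circles and the triangle) and Pdyn (the square).

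Other genes followed the members' pattern. Likeness was measured as Pearson's r over the 6 libraries between a gene's log2 CPM and the mean profile of the members. Of 13803 other genes with a mean of at least 1 CPM, 1431 (10.4%) had an r of at least 0.9. The libraries fall into 2 genotypes, so such an r mostly reflects a difference between the groups. ENSRNOG00000052080 was the most alike (r = 0.999), at 273, 261 and 292 CPM in SD and 762, 796 and 893 CPM in tish. ENSRNOG00000009085 came next (r = 0.999), at 69.0, 69.4 and 72.0 CPM in SD and 87.4, 88.3 and 91.8 CPM in tish. Neither ID is paired with a symbol here. Against the mean of the other 5 members, r ranged from 0.801 for Tac1 to 0.996 for Penk.

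Promoter windows, the 250 bases before the annotated start, came from RefSeq on GRCr8 for 4 of the 6 members (Drd1, Drd2, Tac1 and Pdyn, not Penk or Adora2a). The window of Drd1 lies wholly and that of Tac1 mostly inside the span of the RefSeq gene, which begins further upstream than the start used for the window. Those of Drd2 and Pdyn are shown, 1 gene of each pathway, because in both the window ends where the RefSeq gene begins. Capitals mark a GC box (GGGCGG) or a TATA box (TATAAA) on either strand, motifs chosen after the sequences were seen. Drd2 lies at chr8:58605153-58605402 on the plus strand and Pdyn at chr3:137366504-137366753 on the minus strand.
Drd2: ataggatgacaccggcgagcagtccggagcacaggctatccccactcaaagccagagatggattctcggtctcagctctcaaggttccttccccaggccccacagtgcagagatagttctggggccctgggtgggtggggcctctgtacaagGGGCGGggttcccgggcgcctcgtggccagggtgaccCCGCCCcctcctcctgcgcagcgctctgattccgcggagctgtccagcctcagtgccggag
Pdyn: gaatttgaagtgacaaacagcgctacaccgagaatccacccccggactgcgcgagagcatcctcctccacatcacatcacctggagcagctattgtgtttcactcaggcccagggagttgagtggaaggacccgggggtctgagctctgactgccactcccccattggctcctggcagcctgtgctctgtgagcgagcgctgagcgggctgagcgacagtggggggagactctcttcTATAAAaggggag
The Drd2 window was 66% G and C, with 2 GC boxes and no TATA box, and the Pdyn window 59.2%, with 1 TATA box that begins 13 bases before the start and no GC box. A GC box was found in 30.5% and a TATA box in 12.9% of 33469 RefSeq windows of this length. The cyclic AMP response element (TGACGTCA), a site through which dopamine receptor signalling reaches neuropeptide genes, was in none of the 4 windows and in 1.59% of all. Its partial site (TGACG, also contained in the full element) was in 1 of the 4, that of Tac1, against 18.2% of all. As said above, the Tac1 window lies mostly inside the gene's span. The AP-1 site (TGANTCA) was in none of the 4, against 6.34% of all. These matches describe letters in a window and say nothing of binding.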

How the data were processed

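The deposited values are raw counts of reads for each Ensembl gene ID. STAR, the build Rnor_6.0 and featureCounts 1.5.0 are named in the submitters' processing notes. For annotation release, strandedness and multi-mapping reads, settings were not given in the sources used here. How reads from overlapping genes were assigned is therefore not known here. The table lists its genes in 2 parts, of 32751 and 32754 gene IDs, with 0 differing values for the IDs in both. The first occurrence of each ID was used. The symbols came with the list of members. The RefSeq table (GRCr8) holds all 6 symbols but pairs 0 of the file's IDs with one, so the pairing was not checked and no member was dropped; gene lists by symbol were not analysed.

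Counts were filtered with filterByExpr (minimum count 10), scaled by TMM and tested with a robust quasi-likelihood fit in edgeR 4.0.16 (R 4.3.3), with genotype as the only term. The SE is the log2 fold change divided by the square root of F, and 95% intervals use the fit's degrees of freedom. Log2 CPM for likeness used a prior count of 2. All members are named; the other 2 IDs are those with the highest likeness. The members, lists and tests were chosen with earlier results of these data known. Tried as alternatives were limma 3.58.1 with voom, DESeq2 1.42.0, other scalings, filters and thresholds, sex as a term, and libraries left out. Leaving libraries out for the shares, the count over all pairs of genes and the GC and TATA motifs were added after seeing the data. The fit was tested on simulated data. Replicate numbers follow the order of the samples.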

Additional observations from a re-analysis of the deposited data

How the results depend on the processing

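Of 96 fold changes of the 6 genes under another setting, 89 kept direction and side of the threshold, 7 kept the direction but missed it and 0 reversed. Those 7 were Tac1 without scaling factors (0.47), with males alone (0.50) and with SD 2, SD 3, tish 1 or tish 3 left out, and Pdyn with SD 1 and tish 3 left out (0.47). With 1 library left out Tac1 ranged from 0.41 to 0.68. The number of members called was 5 or 6 under every setting run, and 5 at an adjusted p under 0.01. Over all tested genes 3894 were called, 1980 higher and 1914 lower. The counts were 2130, 1170 and 960 with males alone and 1930, 1046 and 884 at an adjusted p under 0.01. With 1 library left out they ran from 2437 to 4764, from 1307 to 2480 and from 1130 to 2284. The share of Drd2 in the 6 genes' counts, higher in tish by 0.342 points, differed by -0.543 (without SD 3) to 1.1 points (without SD 1) with 1 library left out, and by -0.0115 points without tish 3. The cause was not tested. No paired analysis was possible because the labels used here link no SD embryo to a tish embryo. Depth limits Drd1 most, with 46 counts in each of SD 1 and SD 2.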
